A study of Homo sapiens with 4 samples.

Results

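Plectin (PLEC) and 8 other genes for very large proteins that link parts of the cytoskeleton were examined for N6-methyladenosine (m6A) sites. The other members were MACF1, DST, EPPK1, AHNAK, AHNAK2, FLNA, FLNC and DSP. The group was selected on the site counts of these data, as PLEC holds more sites than any other gene of the list, so those counts are given as a description and without a test. A site was assigned to a member when it lay on the same strand inside the gene as GENCODE release 44 draws it, in an exon or an intron. By this rule 76 of the 18789 sites of the list belonged to the members (0.404%). They lay in 4 of the 9 genes, while 3860 genes held sites in all.

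The sites come from untreated C643 cells labelled WT, an established human line grown from a tumour of the thyroid (anaplastic carcinoma). Polyadenylated RNA of 3 biological replicates (4 libraries, since replicate 1 was sequenced as 2 technical libraries) was subjected to miCLIP2, in which fragments bound by a rabbit anti-m6A antibody are crosslinked to it and the end of the cDNA marks the modified base. The m6Aboost classifier sorted the peaks at A into sites and background, and each site carries its prediction score between 0 and 1. The replicates were pooled into 1 list without read counts, so no spread between replicates, no depth per site and no share of modified molecules can be given, and there was no other group to compare with.

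m6A is written mainly by the METTL3 complex, in mRNA preferentially at DRACH motifs (D is A, G or T, R is A or G, H is A, C or T, and the A is the modified base). It is known to collect in long internal exons, around stop codons and in 3′ UTRs, and to be scarce close to exon junctions, where exon junction complexes sit on the spliced RNA. The linker genes offer both kinds of architecture. PLEC, EPPK1 and DSP encode plakins, which tie intermediate filaments to junctions and to other filaments, and much of their coding sequence lies in a few very long exons. MACF1 and DST encode spectraplakins, which bridge actin and microtubules. AHNAK and AHNAK2 encode repetitive scaffold proteins of the cell cortex, each mostly from a single enormous exon. FLNA and FLNC encode filamins, which crosslink actin filaments, and are split into many short exons.

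PLEC held 48 sites, the largest count of any gene in the list, where the median gene held 3. FLNA held 12 sites (rank 259 by number of sites, shared by 57 genes). FLNC held 10 sites (rank 396, shared by 98 genes) and AHNAK held 6 (rank 992, shared by 243 genes). No site was listed in MACF1, DST, EPPK1, AHNAK2 or DSP. All 76 sites were exonic, 65 of them outside UTRs and 11 in 3′ UTRs, and 0 were intronic. No site lay inside a further gene on the same strand.

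In the 9 chosen transcripts, 63 of 2484 exonic DRACH motifs were listed, which is 2.54% (95% Wilson interval 1.99% to 3.23%). The background over all 3650 transcripts with a listed motif was 7.42%, or 15865 of 213862 motifs. Over the 4 members with a site the share was 7.38% (63 of 854, 5.81% to 9.33%), close to that background. The average covers very different genes. In PLEC 19.7% of DRACH motifs were listed (35 of 178, 14.5% to 26.1%), a share above that of 88.6% of the host transcripts. In FLNA it was 10.2% (12 of 118, 5.91% to 16.9%), in FLNC 6.90% (10 of 145, 3.79% to 12.2%) and in AHNAK 1.45% (6 of 413, 0.667% to 3.13%). Intervals on shares cover the counting of motifs alone. Motifs of a transcript share its abundance and are not independent, so the intervals are narrower than the true uncertainty.

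**Figure D1:**
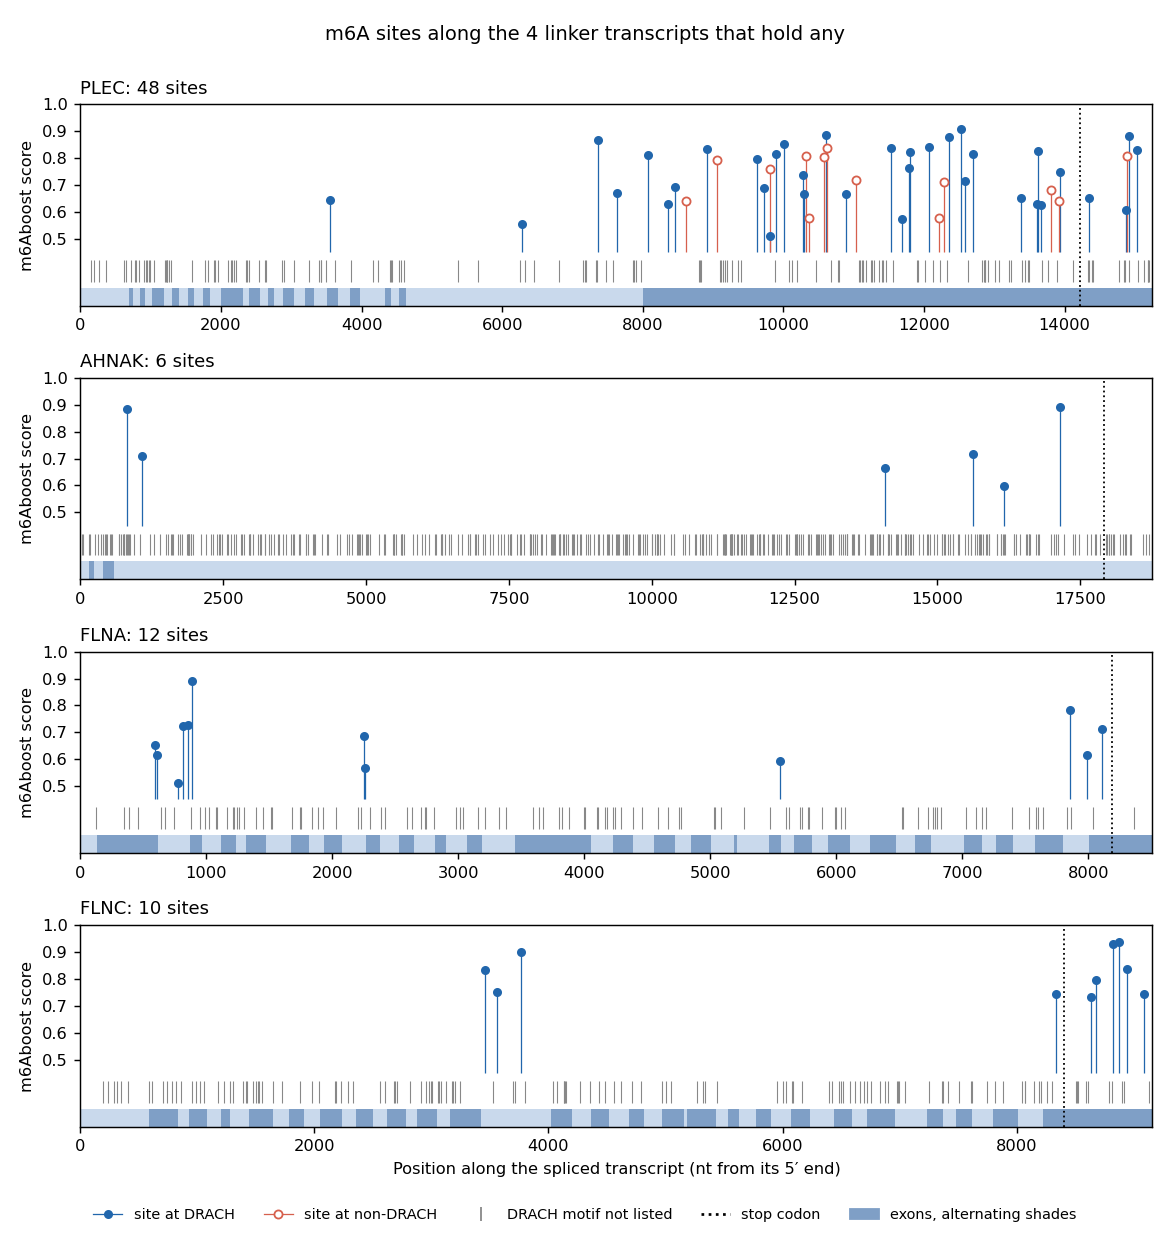
Sites along the spliced transcripts of the 4 members that hold any, with position in nt from the 5′ end on the x axis and the m6Aboost score on the y axis. Filled points are sites at DRACH, open points sites at other pentamers, grey ticks DRACH motifs that were not listed, the bar at the base the exons in alternating shades, and the dotted line the stop codon. PLEC sites fill its last exon, AHNAK sites lie towards both ends of its coding exon, and FLNA and FLNC sites lie in a few separate places.

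PLEC lies on chromosome 8 (GRCh38 143915153 to 143976734, minus strand), and its chosen transcript PLEC-201 has 32 exons and 15249 nt. Of its 48 sites, 44 lay in the last exon, number 32 (143915153 to 143922395, 7243 nt), which encodes the repeat-rich C-terminal part of plectin that binds intermediate filaments. Exon 31 (3381 nt), which encodes the coiled-coil rod, held 3 sites, and exon 24 (158 nt) held 1. The other 29 exons held none. In exon 32, 39 sites lay in the coding part of 6216 nt and 5 in the 3′ UTR. Most were far from the stop codon: 32 lay more than 1000 nt before it, and 1 lay within 200 nt of it on either side.

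The sites were spread over the whole length of exon 32. When it was cut into 4 parts of equal length, these held 9, 13, 11 and 11 sites from 5′ to 3′. The shares of DRACH motifs listed were 38.9% (7 of 18), 25% (7 of 28), 33.3% (9 of 27) and 29.6% (8 of 27), and their intervals overlapped widely. Neighbouring sites of exon 32 lay 7 to 683 nt apart, with a median of 114 nt, and 12 of 43 neighbouring pairs lay within 50 nt. The 3 sites of exon 31 lay at 1664, 2735 and 3002 nt from its start. When exon 31 was cut into 3 parts of equal length these held 0, 1 and 2 sites, and 2, 5 and 13 DRACH motifs.

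The highest score in PLEC was 0.909, at a GGACT in the coding part of exon 32 (position 143917875), and the lowest was 0.509, at a TGACC (143920592) of the same exon. The median was 0.742. Only 5 motifs of PLEC were GGACT, the pentamer with the highest score in the gene, and 1 of them was listed, so nearly all sites of PLEC lay at other pentamers. GGACC gave 11 sites (26.2% of 42 motifs listed), GGACA gave 9 (42.9% of 21) and AGACC gave 6 (23.1% of 26). TGACC, as frequent as AGACC, gave 1 (3.85% of 26), and 0 of 8 GAACA motifs were listed. In the 2 long exons of PLEC 66.7% of the 30 listed coding motifs began with GGAC, and of the 73 that were not listed 26.0% did. The split was not particular to PLEC: in exon 5 of AHNAK the shares were 66.7% of 6 and 29.5% of 376. The shares of these pentamers in PLEC are given without the same shares over all host transcripts, so they single out no trait of PLEC. Pentamer and surrounding sequence are inputs of the classifier, which bears on all these shares.

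PLEC also carried the non-DRACH sites of the group. Of its 48 sites, 13 had no DRACH motif, 12 of them GGACG and 1 GTACT, while the other 28 member sites were all DRACH. In the whole list 11.3% of sites were non-DRACH and 3.91% were GGACG. This pentamer differs from DRACH in its last base alone, and PLEC held 34 of them, of which 35.3% were listed (12 of 34, 21.5% to 52.1%). The background for GGACG over all host transcripts was 6.9%, and in coding exons of at least 1000 nt it was 17.4% (252 of 1448). In the long coding exons of PLEC it was 44% (11 of 25, 26.7% to 62.9%). FLNA held 23 GGACG pentamers, AHNAK 13 and FLNC 11, and 0 of these were listed. The GGACG sites of PLEC scored between 0.576 and 0.836 with a median of 0.738, and its DRACH sites had a median of 0.747.

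Listed shares were then compared between long and short coding exons. Exons of at least 1000 nt were called giant. Over all host transcripts 17.5% of coding DRACH motifs in giant exons were listed against 3.71% in shorter exons, a ratio of 4.72 (95% interval 4.504 to 4.94). Over the 9 members the shares were 3.29% (36 of 1095) and 1.38% (17 of 1230), a ratio of 2.38 (1.34 to 4.21). The chosen transcripts used here lack the 17547 nt exon of AHNAK2 and the 5451 nt exon of MACF1. With canonical transcripts the ratio was 1.71. In the shorter exons 12 of the 17 listed motifs were in FLNA and 4 in FLNC, which have no giant exon. In giant exons 30 of the 36 listed motifs were in PLEC and 6 in AHNAK. The pooled ratio thus compares different genes as well as exon lengths, which cannot be told apart in it. The ratio over the 9 members also rested on PLEC and on several choices. Without PLEC it fell to 0.443, with GGACT motifs alone to 0.424, and with motifs over 100 nt from any junction to 0.996. The GGACT value has no interval and rests on few motifs, since 11 of 105 exonic GGACT motifs were listed, 3′ UTRs included. With internal exons alone it was 0.807, which leaves out exon 32 of PLEC and the last exons of AHNAK, EPPK1, AHNAK2 and DSP. Among the 4 members with a site it was 1.36 (0.776 to 2.37), an interval that includes equality.

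Within PLEC the contrast was wide. In its 2 giant exons 29.1% of coding DRACH motifs were listed (30 of 103, 21.2% to 38.5%), and in its shorter exons 1.75% (1 of 57, 0.310% to 9.29%). The ratio was 16.6, with an interval of 2.32 to 119 because the shorter exons held 1 listed motif. Of the 30 listed motifs 27 were in exon 32, the last exon. Exon 31, the internal giant exon, had 3 of 20 listed (5.24% to 36.0%). Exon length and last-exon position cannot be told apart in this ratio. In AHNAK 1.57% of the motifs of its giant exon were listed (6 of 382, 0.722% to 3.38%), a level below the background for giant exons, and 0 of 10 in its shorter exons. In the filamins, which have no giant exon, exons from 400 nt up to the giant class held 3 listed of 15 coding motifs in FLNA (7.05% to 45.2%) and 4 of 15 in FLNC (10.9% to 52.0%). Both intervals include the 15.4% of all host transcripts (1631 of 10620). In exons under 400 nt FLNA had 8.91% listed (9 of 101, 4.76% to 16.1%) and FLNC 0 of 113 (upper bound 3.29%), where all host transcripts had 1.98%.

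**Figure D2:**
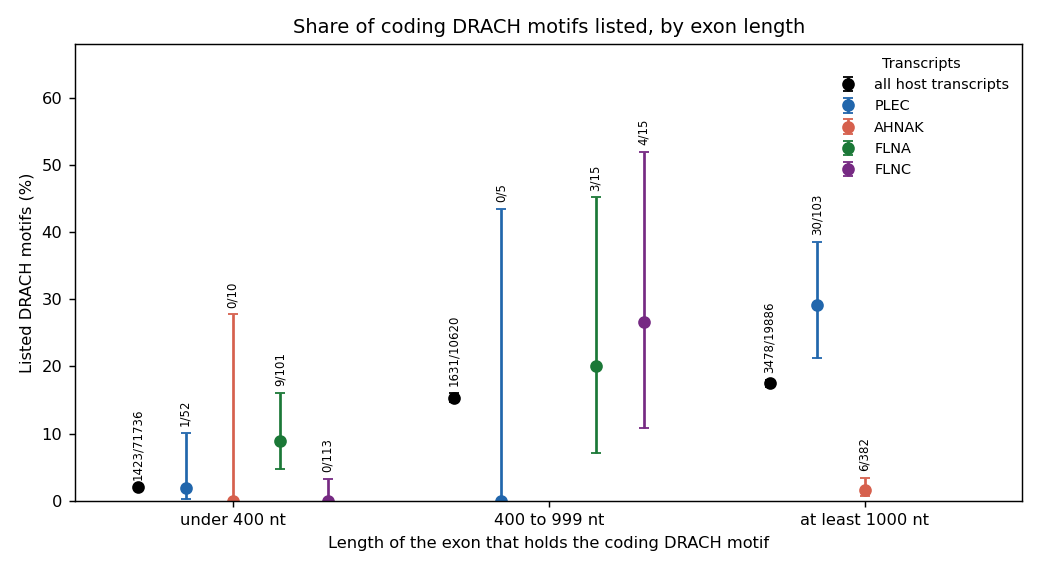
Share of coding DRACH motifs listed (y axis, percent) by the length of the exon that holds them (x axis), for all host transcripts and the 4 members with sites. Points are shares, bars 95% Wilson intervals, and the fractions give listed over all motifs. In the giant class PLEC lies at 29.1% and AHNAK at 1.57%, on either side of all host transcripts at 17.5%.

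Exon 32 of PLEC and exon 5 of AHNAK were then placed among the 257 giant exons of host transcripts with at least 20 coding DRACH motifs. The median exon of these had 15.0% of its motifs listed (quartiles 4.17% and 27.8%), and 37 had none. Exon 32 of PLEC was the ninth longest and had the most listed coding motifs of all, 27 of 83 (32.5%), and 220 of the 257 exons had a lower share. Exon 31 of PLEC, with 3 of 20 listed, stood at the median. Exon 5 of AHNAK was the longest of all at 18173 nt and had a lower share than all but 37 of them, which equals the number of exons with none. So the longest exon of the comparison had the lowest share above 0. That rank depends on its 382 coding motifs, because an exon with few motifs cannot have so low a share unless none is listed. The rank therefore says little about exon length.

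Local GC content moved with these shares. Over all host transcripts the listed share of coding motifs in giant exons was 3.62% where the surrounding 201 nt had under 45% GC, 10.2% between 45% and 55%, 18.4% between 55% and 65%, and 24.95% at 65% or more. The median local GC content was 65.7% in exon 32 of PLEC and 48.8% in exon 5 of AHNAK, against 59.7% for the median giant exon. Within the same GC classes PLEC stood at 25% (10 of 40) and 31.7% (20 of 63), and both intervals included the background. AHNAK stood at 0 of 50 under 45% and at 1.59% (5 of 314, 0.682% to 3.67%) between 45% and 55%, below the background of the latter class. Between 55% and 65% it stood at 5.56% (1 of 18, 0.988% to 25.8%), an interval that includes the background. Inside PLEC, listed and unlisted motifs of the giant exons had median local GC contents of 66.2% and 65.7%. The part of GC content in the result was not tested.

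**Figure D3:**
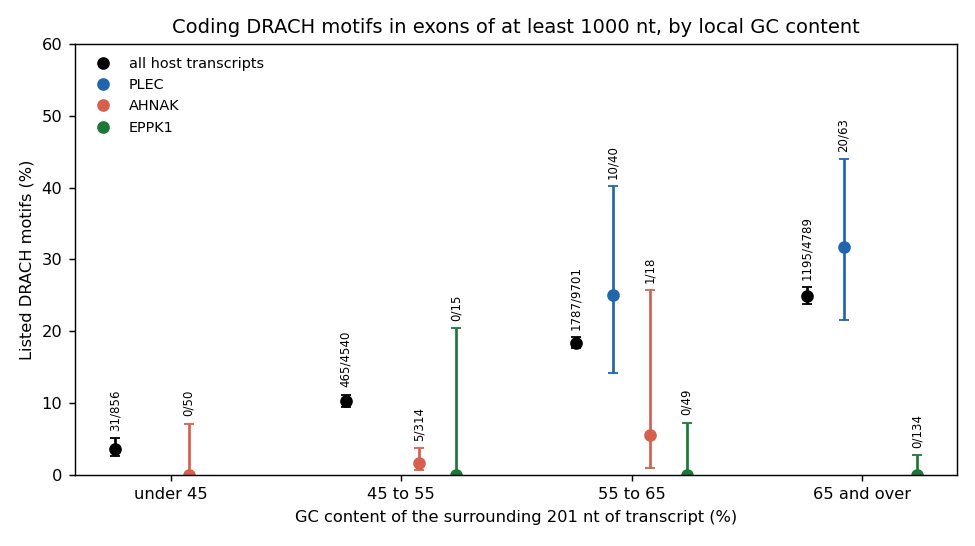
Share of coding DRACH motifs listed in exons of at least 1000 nt (y axis, percent) by the GC content of the surrounding 201 nt (x axis, percent), for all host transcripts, PLEC, AHNAK and EPPK1. Points are shares and bars 95% Wilson intervals, with listed over all motifs beside them. The shares of all host transcripts rise from 3.62% to 24.95% over the classes, PLEC lies near them, AHNAK lies below them at 45% to 55%, and EPPK1 is at 0 in the 3 classes where it has motifs.

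AHNAK (chr11:62433542-62556235, minus strand) encodes a scaffold protein found beneath the plasma membrane. All of its 6 sites were coding DRACH sites in exon 5. From 5′ to 3′ they lay at 222, 494, 13493, 15027, 15582 and 16560 nt of the exon and scored 0.886, 0.711, 0.666, 0.718, 0.597 and 0.893. The best scores thus belonged to the outermost sites. Between the inner sites at 494 and 13493 nt lay 12999 nt without a site, with 285 DRACH motifs. AHNAK is built of repeats there, and 67 of these motifs were followed by 30 nt that occur more than once in the genome, where reads of that length cannot map uniquely. The other 218 motifs were followed by unique sequence, 5 of them GGACT, and none was listed. Over the whole transcript 73 of 413 motifs (17.7%) had repeated sequence after them, and without these the listed share was 1.77% in place of 1.45%.

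The highest scoring site of AHNAK (0.893, chr11:62517505-62517525, minus strand) is shown as 21 nt of coding sequence 5′ to 3′, the stretch that the classifier reads, with the pentamer around the site in capitals.
AHNAK exon 5: gtcagattGGACTccaggctc

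FLNA (chrX:154348524-154374634, minus strand) encodes filamin A, the actin crosslinker of non-muscle cells. Its 12 sites were all coding and all DRACH, and they lay in 7 of 48 exons. From 5′ to 3′, exon 2 held sites scoring 0.654 and 0.614, exon 3 sites of 0.511, 0.724 and 0.726, and exon 4 a site of 0.890. Exon 13 held sites of 0.686 and 0.566, exon 32 a site of 0.593, exon 47 sites of 0.785 and 0.615, and exon 48, the last, a coding site of 0.714. The 598 nt exon 22, the longest of the gene, held none. Exons 2 to 4, at the 5′ end of the coding sequence, which encodes the actin-binding domain, thus held 6 of the sites. Exons 47 and 48, close to the stop codon, held 3, and the other 3 lay between these groups.

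Sites of FLNA lay near exon junctions. Of the 12, 11 lay within 100 nt of a junction, with a median of 17 nt over all 12 and a range of 4 to 108 nt. In FLNA 89.7% of coding motifs lie within 100 nt of a junction. The listed share of those motifs was 10.6% (11 of 104, 6.01% to 18.0%), and the background for coding motifs within 100 nt of a junction was 2.47%. The sites leaned to the 3′ end of their exons: 9 lay closer to the downstream junction than to the upstream one. A window of 20 nt before the downstream junction held 6 sites, and the next site lay at 29 nt. This window was not among the planned results, so its shares are a description. Of the 16 coding motifs of FLNA in that position 37.5% were listed (18.5% to 61.4%), and over all host transcripts 1.999% were (242 of 12107). FLNC had 14 such motifs and PLEC 6, and 0 of them were listed. The 6 sites next to a downstream junction scored 0.566 to 0.726 with a median of 0.615, and the other 6 sites scored 0.511 to 0.890 with a median of 0.719.

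The 4 closest sites of FLNA lay within 108 nt of the spliced RNA, across the junction of exons 3 and 4. They are shown 5′ to 3′ from 10 nt before the outermost site to 10 nt after it, with the listed pentamers in capitals, because they place 3 sites within 89 nt of the 3′ end of an exon and 1 site 18 nt after the junction. The genomic spans are chrX:154367842-154367941 and chrX:154367710-154367738, minus strand, and all of it is coding sequence. The GGACT of exon 4 was the highest scoring site of the gene.
FLNA exon 3: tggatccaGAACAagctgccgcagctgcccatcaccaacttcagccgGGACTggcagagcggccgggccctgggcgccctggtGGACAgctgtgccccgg
FLNA exon 4: gcctgtgtcctgactgGGACTcttgggac

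FLNC (chr7:128830406-128859274, plus strand) encodes filamin C, best known from striated muscle. Its 10 sites were all DRACH and lay in 2 of 48 exons. Exon 21, 598 nt long, held 3 of 7 motifs listed, at 33, 140 and 344 nt from its start with scores of 0.834, 0.751 and 0.9004. Exon 48, the last and longest at 937 nt, held a coding site of 0.746 that lay 68 nt before the stop codon. In its 3′ UTR the scores were, from 5′ to 3′, 0.732, 0.797, 0.932, 0.937, 0.838 and 0.745. The 3′ UTR had 37.5% of its motifs listed (6 of 16, 18.5% to 61.4%), where the background for 3′ UTRs was 9.2%. GGACT made up 6 of the 10 sites of FLNC, and 54.5% of its 11 GGACT motifs were listed, against 26.2% over all host transcripts and 3 of 10 in FLNA.

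The filamins are paralogs with nearly the same exon layout, which allows a comparison position by position. Aligned over 7913 nt, their coding sequences were 74.4% identical. FLNA had 116 coding DRACH motifs and FLNC 128, and 48 positions were DRACH in both. Of these shared positions 5 were listed in FLNA, 2 in FLNC and 0 in both. Of the 12 coding sites of FLNA, 5 had a DRACH motif at the aligned position of FLNC, and of the 4 coding sites of FLNC, 2 had one in FLNA. With so few listed motifs among the shared positions, an overlap of 0 says little about whether the paralogs differ. How many reads covered each gene is unknown.

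Exon 21 of FLNC and exon 22 of FLNA align over their whole 598 nt, and sites were listed in the former only. The 3 FLNC sites and the aligned FLNA positions are shown as 21 nt of coding sequence each, 5′ to 3′, with the pentamer in capitals. This pair of exons was chosen after its values were seen. The FLNC windows are chr7:128844680-128844700, chr7:128844787-128844807 and chr7:128844991-128845011, and the FLNA windows are chrX:154360545-154360565, chrX:154360438-154360458 and chrX:154360234-154360254.
FLNC exon 21, nt 33, listed at 0.834: tcaagggtGGACTggtaggca
FLNA exon 22, nt 33, not listed: tgcagggaGGCAGtgcgggct
FLNC exon 21, nt 140, listed at 0.751: gagtgccaGGACAatggtgat
FLNA exon 22, nt 140, not listed: gagtgcttGGACAatggggat
FLNC exon 21, nt 344, listed at 0.9004: ttcactgtGGACTgctcagag
FLNA exon 22, nt 344, not listed: ttccaagtGGACTgctcgagc

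At 33 nt FLNA has no DRACH motif. At 140 and 344 nt the pentamers are the same in both genes, GGACA and GGACT, and were listed in FLNC alone. The last of these is the highest scoring coding site of FLNC.

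The 5 members without sites each held DRACH motifs and at least 1 giant exon, and why none was listed was not tested. DST (chr6:56457987-56954830), which encodes dystonin, held 652 DRACH motifs, 179 of them coding motifs in giant exons, of which the longest is exon 40 with 5508 nt. DSP (chr6:7541338-7586714), for desmoplakin, the plakin of desmosomes, held 231 motifs, 138 of them coding in exons 23 (2295 nt) and 24 (4073 nt). MACF1 (chr1:39081316-39487177) held 462 motifs, of which 83.8% of the coding ones lie within 100 nt of a junction. On its canonical transcript, which keeps an exon of 5451 nt, it held 653. AHNAK2 (chr14:104937244-104978374) held 73 on the chosen short transcript and 395 on the canonical transcript, whose longest exon has 17547 nt. No motif of these genes was listed on either transcript. On the chosen transcripts the 95% upper bounds on listed shares were 0.586% for DST, 0.825% for MACF1, 1.64% for DSP and 5.00% for AHNAK2.

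EPPK1, the gene of the keratin-binding plakin epiplakin, is a neighbour of PLEC. It lies 36685 nt from PLEC on the same strand, and the coding part of its exon 2 (15975 nt) had a median local GC content of 68.4%. It held 212 DRACH motifs and 39 GGACG pentamers, and 0 were listed (upper bounds 1.78% and 8.97%). Its repeats are near-identical: 93 of the 212 motifs (43.9%) were followed by 30 nt found up to 9 times in the genome. That left 118 motifs with unique sequence after them, of which 0 were listed (upper bound 3.15%). The count of motifs followed by repeated sequence was 6 of 178 in PLEC and 0 in MACF1, DST and DSP. In AHNAK2 it was 0 of 73 on the chosen transcript. On its canonical transcript it was 127 of 395 (32.2%), with up to 17 copies. A gene without sites cannot be told apart here from a gene with too few reads for a peak, since no expression was measured in the files used.

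To set each member beside genes of like architecture, the number of listed motifs was compared with an expected number. The expectation gave each motif the listed share of motifs of the same region, exon length class, distance to the nearest junction and pentamer in all other host transcripts. Over the 9 members 63 motifs were listed and 238 expected, a ratio of 0.265. PLEC had 35 listed and 17.7 expected (ratio 1.98), FLNA 12 and 4.69 (2.56), and FLNC 10 and 7.70 (1.299). AHNAK had 6 listed and 77.9 expected, a ratio of 0.0770. The members without a site had 42.1 (DST), 35.5 (EPPK1), 21.4 (MACF1), 20.8 (DSP) and 9.85 (AHNAK2) motifs expected. The values of MACF1 and AHNAK2 are for the chosen transcripts, which lack their longest canonical exons (5451 and 17547 nt). PLEC was chosen for its count, so its ratio is a description. The transcripts behind the expectation all hold a listed motif, which raises it for genes that were not picked in that way. With region and pentamer as the only classes the ratio was 3.60 for PLEC, 0.996 for FLNC, 1.70 for FLNA and 0.226 for AHNAK, and 0.437 over the 9 members.

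**Figure D4:**
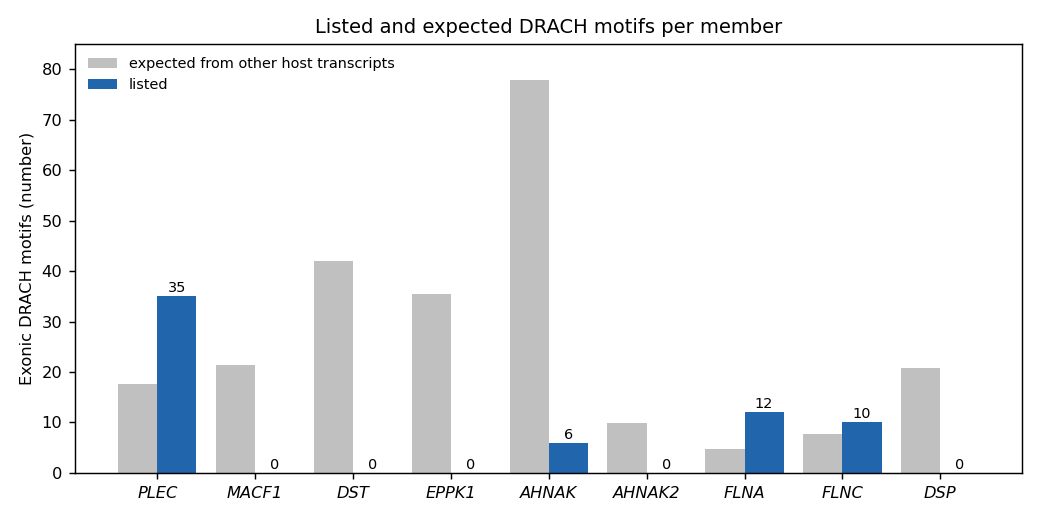
Number of exonic DRACH motifs listed (blue, with the number above the bar) and expected from motifs of the same class in other host transcripts (grey) for each of the 9 members. PLEC, FLNA and FLNC had more motifs listed than expected, AHNAK had 6 against 77.9, and 5 members had 0.

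Neighbouring listed DRACH sites of the members lay within 50 nt of each other in 12 of 59 pairs (20.3%, 12.04% to 32.3%), and over all host transcripts in 29.6% of 12215 pairs. All DRACH motifs, listed or not, lay within 50 nt of the next in 58.9% of pairs in the 4 members with a site and in 60.5% over all host transcripts. Listed motifs are a subset of all motifs, so they lie farther apart on average by construction. In PLEC 5 of 34 listed pairs lay within 50 nt (14.7%, 6.45% to 30.1%) and the median distance was 248 nt. All its motifs had a median spacing of 53 nt. The non-DRACH sites of PLEC filled many of the gaps between its DRACH sites: with them the median distance was 117 nt and 12 of 47 pairs lay within 50 nt. In FLNA 5 of 11 pairs lay within 50 nt, with distances from 12 to 3290 nt. In FLNC 2 of 9 did, and in AHNAK 0 of 5, where the closest pair was 272 nt apart.

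The 76 member sites had a median score of 0.734 (95% order statistic interval 0.692 to 0.796), and the median of all 18789 sites was 0.754. Of the members FLNC had the highest median, 0.816 (range 0.732 to 0.937). All 10 of its sites scored at least 0.7, where 62.9% of all sites did. PLEC followed with 0.742, AHNAK with 0.714 and FLNA with 0.670 (range 0.511 to 0.890). The intervals of PLEC (0.669 to 0.807), AHNAK (0.597 to 0.893) and FLNA (0.593 to 0.726) overlap, as do those of FLNC (0.745 to 0.932) and PLEC, whereas those of FLNC and FLNA do not. Coding sites of giant exons had a median of 0.727 (48 sites) and coding sites of shorter exons one of 0.714 (17 sites), and the same medians over all host transcripts were 0.722 and 0.686. The 11 sites in 3′ UTRs had a median of 0.807. Region and sequence are inputs of the score, so these are descriptions.

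**Figure D5:**
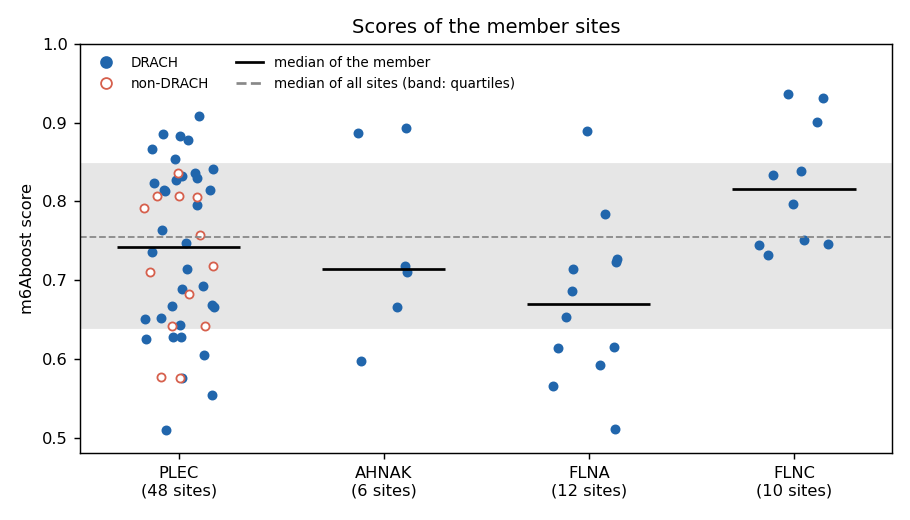
m6Aboost scores (y axis) of the 76 sites by member (x axis), with sites at DRACH filled and others open, jittered sideways. Black lines are the member medians, the dashed line is the median of all 18789 sites (0.754) and the band its quartiles. FLNC sites lie between 0.732 and 0.937, while FLNA sites reach down to 0.511.

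Partner genes of the same structures were counted from a list of 47. These were other plakins, spectrins, dystrophins, nesprins and SUN proteins, talins with vinculin and actinins, intermediate filaments, desmosome and hemidesmosome components, AHNAK partners and microtubule end proteins. Of the 47 genes, 11 held sites (23.4%, 13.6% to 37.2%), where 18.8% of all protein-coding genes did. They held 47 sites in all, and 0 genes held as many as 10. Talins, vinculin and actinins, which anchor actin at adhesions, had 18 sites in 3 of 5 genes. Spectrins, the lattice under the membrane, had 10 sites in 2 of 7 genes. Intermediate filament genes, whose products PLEC and DSP bind, had 9 sites in 3 of 8 genes. Nesprins and SUN proteins, which join the nucleus to the cytoskeleton, had 5 sites in 1 of 5 genes, AHNAK partners 3 sites in 1 of 3, and desmosome genes 2 sites in 1 of 8. Microtubule end proteins (4 genes), hemidesmosome genes (3), dystrophins (2) and the other plakins (2) had none. The largest count among the genes of these lists was 9. PLEC was selected as the gene with most sites (48), so its larger count is not a result of this comparison. These counts were not adjusted for transcript length.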

How the data were processed

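The authors aligned the reads to GRCh38.p12 with STAR 2.7.3a, kept uniquely mapping reads and removed duplicates with UMI-tools 1.0.0 (SAMtools 1.9 and bedtools 2.27.1 are also named in the submitters' processing notes). PureCLIP peaks of each replicate were retained if several replicates had them, and those at A went into the m6Aboost classifier, which reads the 21 nt around the site, the transcript region, C-to-T transitions and the relative signal strength. The deposited score is a fraction between 0 and 1, pooled over replicates. Depth per site is unknown.

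Sites were placed on GENCODE release 44 (a later release than the authors used), on the longest spliced transcript with a support level (TSL) of at most 3 and level of at most 2, or the canonical transcript where none passed (EPPK1). Shares have 95% Wilson intervals, ratios log intervals and medians order statistic intervals, and no p-value was computed, as the list is 1 group. The 30 nt after each motif were searched for exact copies in the genome. Coding sequences of FLNA and FLNC were aligned globally with Biopython 1.88. All 9 members are named, each with its highest and lowest scoring site and the exon with most sites, and partner genes only with at least 10 sites. An item of the partner list is not reported here. The members and lists were chosen with earlier results of these data known. The calculations were tested on simulated data. Intervals came from scipy 1.17.1, sequences were read with pysam 0.24.0, tables were handled with pandas 2.3.3 and numpy 2.4.6 under Python 3.11.15, and plots drawn with matplotlib 3.10.9.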

Additional observations from a re-analysis of the deposited data

How the results depend on the processing

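No paired analysis was possible because the list pools all replicates of 1 group, and for the same reason no replicate could be left out. Of 35 alternative values for the 6 results, 20 stayed within the interval of the reported value or within 1.5 times its count. A score of at least 0.7 left 47 of the 76 member sites (61.8%), where it left 62.9% of all sites. With it 1.57% of member motifs were listed. The median score was then 0.813, which such a cut raises by construction. On canonical transcripts the ratio of listed to expected motifs was 0.199, and the ratio of giant to shorter exons was 1.71. With GGACT alone 10.5% of member motifs were listed (11 of 105), and the ratio of giant to shorter exons, on these few motifs, turned to 0.424. Without PLEC the listed share was 1.21%, the ratio of giant to shorter exons turned to 0.443, and the ratio to expected was 0.127. The exon ratio also fell below 1 with coding motifs over 100 nt from any junction (0.996) and with internal exons (0.807). Classes of region and pentamer gave 0.437 for listed over expected. A window of 25 nt held 8.47% of neighbouring pairs. With the 4 members that hold sites (chosen after seeing the data) the share was 7.38% and the ratio to expected 0.583. The exon ratio compares largely different genes, and the causes of these changes were not tested.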
